A study of Rattus norvegicus with 36 samples.

Results

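The extracellular matrix genes described here comprise collagens, laminins and other basement membrane proteins, integrins and other matrix receptors, matricellular proteins, and the proteases, inhibitors and crosslinking enzyme that remodel the matrix. They were chosen by gene symbol, 54 in all, and each was read from its transcript cluster on the array, taking the cluster of the highest mean where a symbol had several. The gene-level table of 18901 clusters gave a value for 40 of the 54. The other 14 (Col1a1, Col6a2, Col9a1, Nid1, Itga2, Itga5, Itga6, Itgav, Itgb3, Itgb5, Thbs1, Adamts4, Spp1 and Dag1) were not analysed here.

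The RNA came from CG-4 cells, a rat line of oligodendrocyte progenitors, the cells that give rise to the myelin-forming cells of the central nervous system. All groups were grown with medium conditioned by B104 neuroblastoma cells, and each had 3 arrays that the labels call biological replicates. The untreated cells were not transfected. A non-silencing small interfering RNA (siRNA), an siRNA against QKI or an siRNA against hnRNP A1 was carried in transiently with lipofectamine 2000. A non-silencing short hairpin RNA (shRNA) and an shRNA against QKI were carried in stably, and the labels do not give the number of clones in either line. QKI binds RNA and is required for myelination, hnRNP A1 is a regulator of splicing, and the design asks what their loss changes against matched controls. The labels do not say whether replicates came from separate cultures or lines, so a p-value measures the spread between these arrays, which may in part be technical.

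Collagens, laminins, nidogens and the heparan sulfate proteoglycan perlecan assemble into the matrix and its basement membranes, and cells hold on to it through integrins, syndecans and CD44. Matricellular proteins such as SPARC tune that contact without being structural parts, while metalloproteinases cut the matrix and TIMP proteins inhibit them. Oligodendrocyte progenitors read matrix laminins through beta-1 integrins as they migrate, survive and mature.

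Values are log2 intensities, and a difference of means on this scale is called a log2 change. Its error, given after ±, is the standard error from limma, which was fitted over all 18 arrays. A gene is called where limma's Benjamini-Hochberg adjusted p over all 18901 clusters is under 0.05. The median of all cluster means was 3.98, and a group mean below it is called dim, since a fold against it is at best a lower bound. Of the 40 genes, 11 were dim in all 6 groups, 6 in some and 23 in none. The 11 are Col5a2, Lama1, Lama2, Itga1, Itga3, Itgb4, Thbs2, Mmp2, Mmp9, Mmp14 and Lox. Levels of different genes are not set against each other, since probes differ in brightness.

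Progenitor markers were present: 6 of the 9 listed progenitor markers were measured, 1 of them (Cspg4) was dim in every group, and the mean of the 6 lay between 7.36 and 8.29 on every array. Single markers moved: in the line labelled QKI shRNA Olig1 fell by 1.26 (adjusted p = 0.00717) and Neu4 rose by 1.30 (adjusted p = 0.00897) against its control, and Gpr17 fell by 2.51 against untreated cells (adjusted p = 0.0108). Ptprz1 fell by 1.04 with QKI siRNA and by 0.91 with hnRNP A1 siRNA against untreated cells (adjusted p = 0.0108 and 0.0223). Qki read 9.99, 10.02 and 9.67 on the QKI siRNA arrays against 11.47, 11.39 and 11.14 with non-silencing siRNA, a log2 change of -1.44 (adjusted p = 0.179). The line labelled QKI shRNA read 10.65, 10.35 and 11.14 against 10.90, 11.01 and 10.99, a log2 change of -0.25 (adjusted p = 0.656). The third array of that line lay above all its controls, against its label, so every direction given for that line belongs to the arrays labelled QKI shRNA. Hnrnpa1 was lower on all 3 hnRNP A1 siRNA arrays than on the non-silencing ones, with a log2 change of -0.70 (adjusted p = 0.393). Array 3 of the untreated, QKI siRNA, hnRNP A1 siRNA and QKI shRNA groups correlated least with its own group, at a mean r of -0.11, -0.07, -0.07 and 0.13 over all clusters centred on their means. QKI siRNA array 1 was as low, at -0.06.

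In the line labelled QKI shRNA, 8 of the 40 genes were called against the non-silencing line, where 10.3% of all 18901 clusters were. That share depends on which values are kept: it was 14.3% with a filter on low values and 15.4% with means of probe sets. The collagen genes Col4a1 and Col11a1, the matricellular gene Sparc, the laminin gene Lamb2 and the receptor genes Cd44 and Sdc3 rose (6 of 40 higher, 3.38% of all clusters), and the nidogen gene Nid2 and the inhibitor gene Timp3 fell (2 of 40 lower, 6.9% of all clusters). All 3 arrays lay above all 3 controls for 8 genes (9.14% of all clusters) and below them for 6 (13.5%). At an unadjusted p under 0.05 stood 16 genes (20.4% of all clusters). The median log2 change was 0.04 over the 40 genes and 0.01 over all clusters. With only the arrays of the 2 lines fitted, 5 genes were called, 2 higher and 3 lower, where 6.75% of all clusters were called. They were Col4a1, Sparc, Nid2 and Timp3 of the 8, and Lamb1, while Col11a1, Lamb2, Cd44 and Sdc3 were not called.

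With siRNA against QKI none of the 40 genes was called, and of all clusters 0% were. limma gave 3 of the 40 an unadjusted p under 0.05 (9.11% of all clusters), and 0 were called either when only the compared arrays were fitted (0.0106% of all clusters). The 3 QKI siRNA arrays lay below all 3 controls for 4 genes (6.63% of all clusters) and above them for 0 (7.41%). With siRNA against hnRNP A1, which shares the non-silencing siRNA arrays, none of the 40 was called either, where 0.00529% of all clusters were. There 1 gene had an unadjusted p under 0.05 (7.04% of all clusters), 3 lay below all controls (5.12%) and 1 above them (8.69%). The median log2 change of the 40 genes was -0.0027 with QKI siRNA and -0.07 with hnRNP A1 siRNA, against 0.04 and 0.00 over all clusters.

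**Figure D1:**
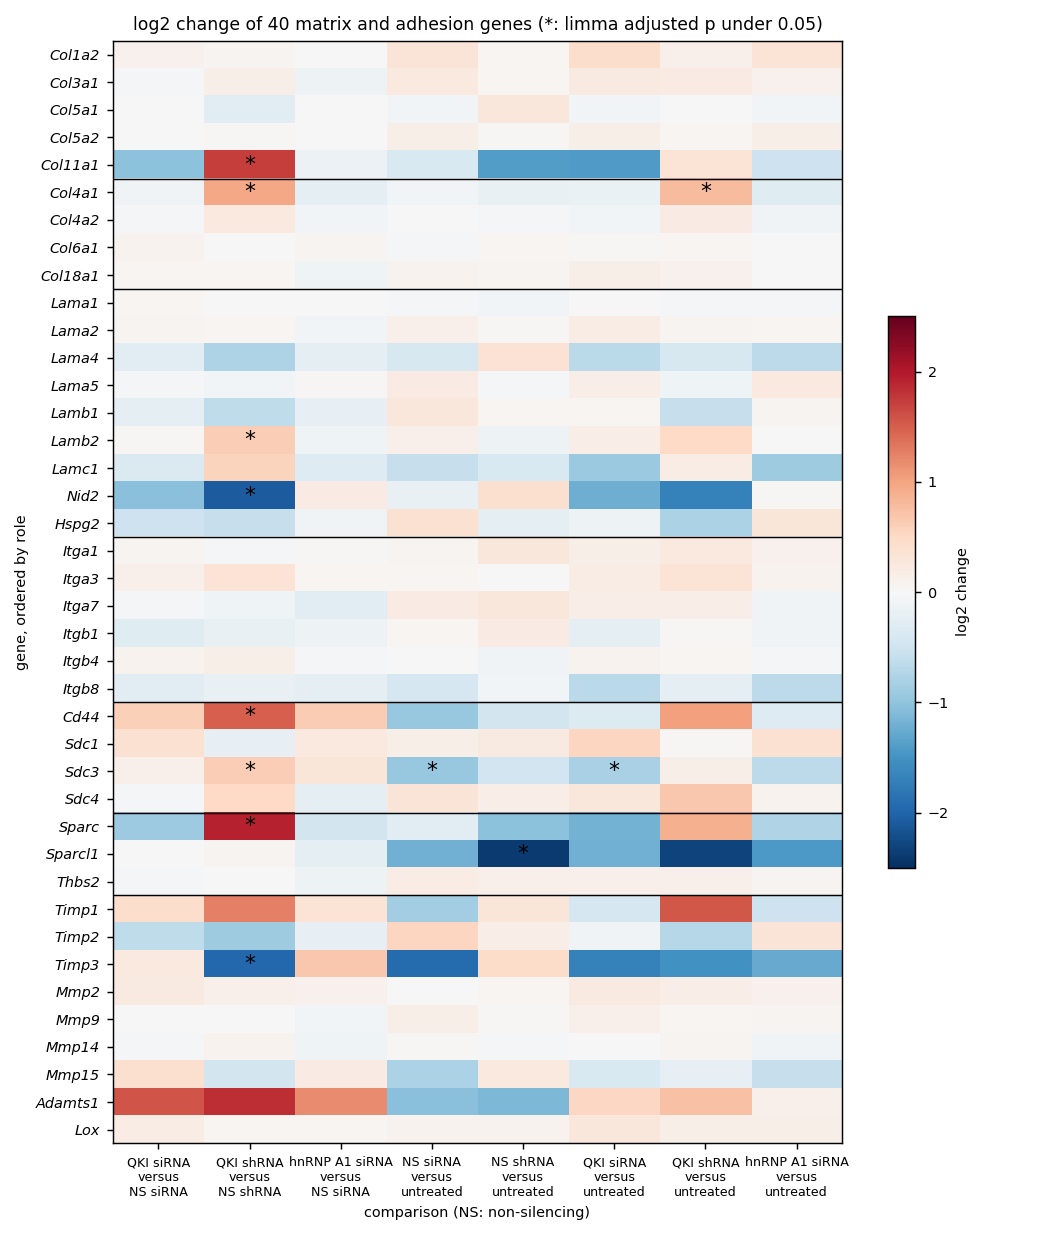
The colour of each cell is the log2 change of 1 gene (rows, grouped by role) in 1 comparison of 2 groups (columns), and a star marks a limma adjusted p under 0.05. Stars stand on 8 genes in the column for the line labelled QKI shRNA against its control and on none in the columns for QKI siRNA and hnRNP A1 siRNA against theirs.

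The promoters of Col4a1, Col11a1, Sparc and Timp3 are shown because these 4 genes were the ones whose change differed between siRNA and shRNA against QKI. Each is the 250 bases before the gene's start, read 5′ to 3′ on the gene's strand, from RefSeq on build GRCr8. Capitals mark matches, on either strand, of 3 motifs: the GC box GGGCGG, the CCAAT box (letters CCAAT), and the TEAD motif, whose letters are GGAATG. The TATA box (TATAAA) and the AP-1 motif (TGANTCA) were searched on both strands too and had no match in these 4 windows. No searched motif overlaps another in its letters.
Col4a1, chr16:84885347-84885596, plus strand: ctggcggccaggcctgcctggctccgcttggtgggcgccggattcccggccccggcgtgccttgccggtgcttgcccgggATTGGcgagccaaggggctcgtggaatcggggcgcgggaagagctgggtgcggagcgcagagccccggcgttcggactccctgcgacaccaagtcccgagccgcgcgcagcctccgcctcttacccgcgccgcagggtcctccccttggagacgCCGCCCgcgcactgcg
Col11a1, chr2:204508886-204509135, plus strand: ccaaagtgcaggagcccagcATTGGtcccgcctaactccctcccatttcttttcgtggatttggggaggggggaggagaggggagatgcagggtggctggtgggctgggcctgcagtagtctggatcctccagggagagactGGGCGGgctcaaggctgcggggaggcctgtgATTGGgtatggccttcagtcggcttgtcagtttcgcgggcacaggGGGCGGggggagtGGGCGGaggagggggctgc
Sparc, chr10:40038817-40039066, minus strand: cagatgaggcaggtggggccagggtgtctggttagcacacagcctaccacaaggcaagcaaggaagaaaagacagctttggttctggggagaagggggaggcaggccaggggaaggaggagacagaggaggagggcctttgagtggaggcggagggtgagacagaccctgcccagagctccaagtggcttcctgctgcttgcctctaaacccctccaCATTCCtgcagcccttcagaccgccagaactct
Timp3, chr7:19459559-19459808, minus strand: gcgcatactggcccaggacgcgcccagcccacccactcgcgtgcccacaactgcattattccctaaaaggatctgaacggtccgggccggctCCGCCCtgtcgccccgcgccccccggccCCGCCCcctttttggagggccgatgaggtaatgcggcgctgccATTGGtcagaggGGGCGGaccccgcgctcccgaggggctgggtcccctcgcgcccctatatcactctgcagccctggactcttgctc
The Col4a1 window held 1 GGGCGG and 1 CCAAT, that of Col11a1 3 and 2, that of Timp3 3 and 1, and that of Sparc neither of these but 1 GGAATG. The table held a promoter for 30 of the 40 genes. GGGCGG stood in 21 of the 30 windows and in 30.5% of all 33469 promoters of the table, CCAAT in 10 and in 34%, and GGAATG in 6 and in 12.1%. TATAAA stood in 3 and in 12.9%, and TGANTCA in 1 and in 6.34%. A match is a stretch of letters and not a binding site.

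Among the collagens, Col4a1, which encodes a chain of the network-forming collagen IV of basement membranes, read 6.44, 6.40 and 6.35 on the arrays labelled QKI shRNA. It read 5.43, 5.30 and 5.55 in the non-silencing line and 5.47, 5.38 and 5.98 in untreated cells. The 3 QKI shRNA arrays lay close together and above all other arrays. Against the non-silencing line it rose by 0.97 ± 0.14 (1.96-fold, adjusted p = 0.000352), and against untreated cells by 0.78 ± 0.14 (adjusted p = 0.0074). It was the only one of the 40 genes called in that second comparison, in which 2.04% of all clusters were called, and the call was lost without untreated array 1 (0.71, adjusted p = 0.0511) and with only the arrays of the 2 groups fitted (0.78, adjusted p = 0.145). The 2 comparisons share the QKI shRNA arrays. With QKI siRNA it read 5.54, 5.37 and 5.43 against 5.50, 5.50 and 5.62 for the non-silencing siRNA, a log2 change of -0.10 ± 0.14 (adjusted p = 0.886).

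Col4a2, the partner chain that is transcribed head to head with Col4a1, read 4.69, 4.76 and 4.52 on the QKI shRNA arrays against 4.30, 4.43 and 4.50. The groups did not overlap, but the log2 change of 0.24 ± 0.13 was not called (adjusted p = 0.33). Only 5 probe sets measured Col4a2 at the exon level, all 5 higher in the QKI shRNA group, against 49 for Col4a1, of which 46 were higher.

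Col11a1, a chain of the fibril-forming collagen XI, read 7.42, 7.26 and 8.97 on the QKI shRNA arrays and 5.78, 6.34 and 6.32 in the non-silencing line. The groups did not overlap, with array 3 the highest of all 18. The gene rose by 1.73 ± 0.44 (3.32-fold, adjusted p = 0.0181). The call was lost without array 3 of that line (1.19, adjusted p = 0.0692) and without array 1 of the non-silencing line (1.55, adjusted p = 0.0756). With only the arrays of the 2 lines fitted it was lost (adjusted p = 0.0621), and with the replicate number as a block in that fit it stood (adjusted p = 0.0295). It held at 1.19 without the 4 arrays that stand apart (adjusted p = 0.000301). With QKI siRNA the arrays read 5.93, 5.89 and 6.54 against 7.003, 7.19 and 7.26 for the non-silencing siRNA. All 3 were lower, and the log2 change of -1.03 ± 0.44 was not called (adjusted p = 0.517), while without the 4 arrays it was, at -1.24 (adjusted p = 0.00133). Untreated cells read 7.92, 7.72 and 6.98, so the 2 controls of the line and of the siRNA did not start from the same level. The non-silencing line differed from untreated cells by -1.39 ± 0.44 (adjusted p = 0.106), and the QKI shRNA group differed from untreated cells by 0.34 ± 0.44.

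None of the other collagen genes measured (Col1a2, Col3a1 and Col5a1 and Col5a2 of the fibrillar kind, and Col6a1 and Col18a1) was called in any of the 8 comparisons of 2 groups. Col5a1 read 4.23, 4.31 and 3.92 with QKI shRNA against 4.46, 4.35 and 4.44, all 3 lower, with a log2 change of -0.27 ± 0.11 (adjusted p = 0.188). Col1a2, Col3a1 and Col5a2, whose products make up the fibrils of connective tissue, had group means of 3.66 to 4.89, near the median of all clusters.

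**Figure D2:**
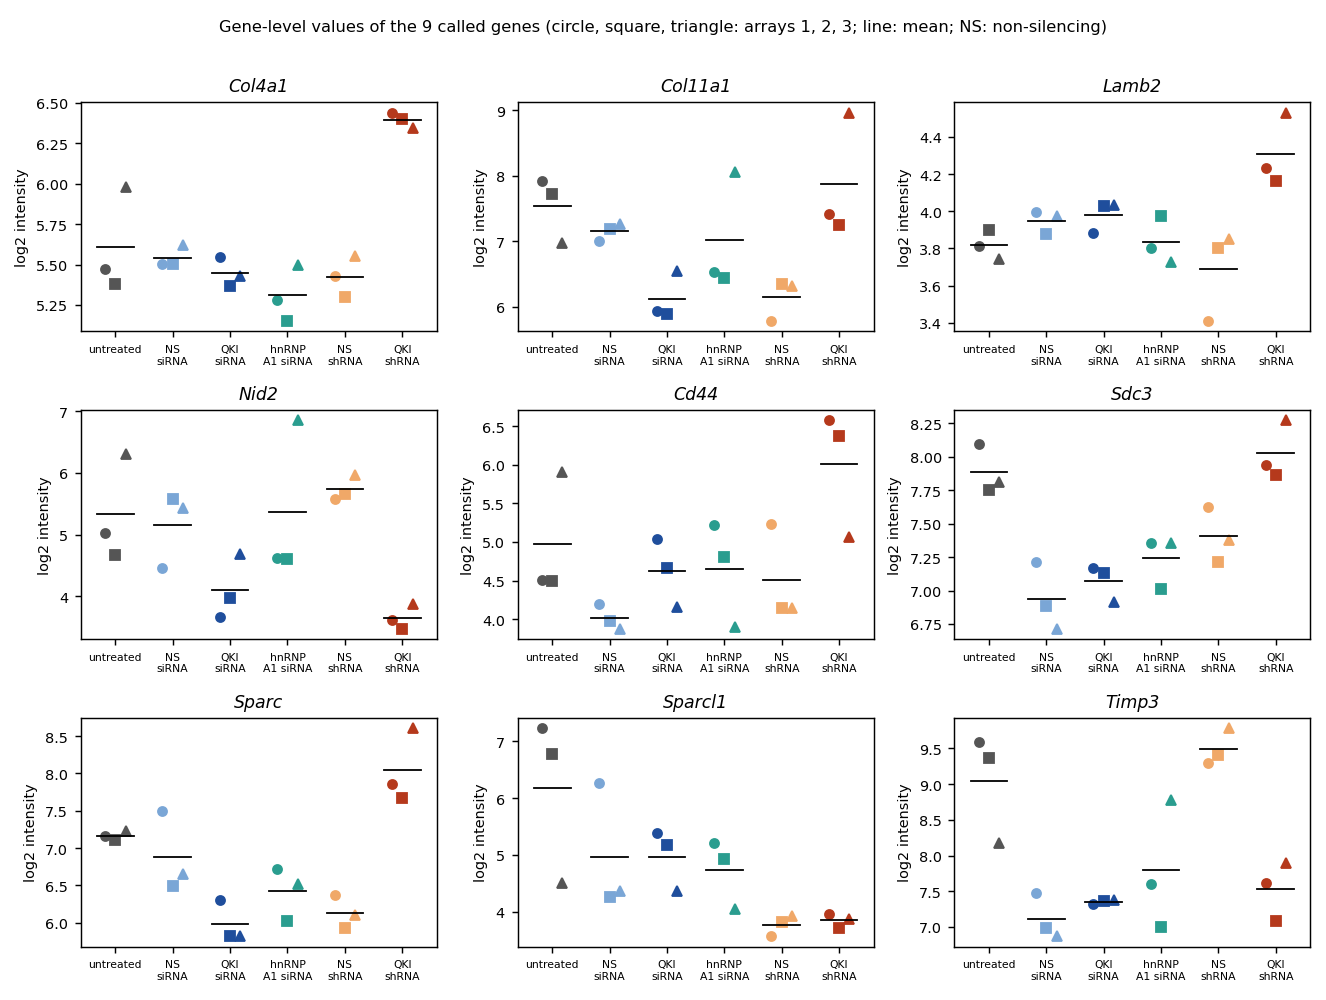
Each panel gives the log2 intensity of 1 gene on the 18 arrays by group (points, shaped by array number) with the group mean (line). On the QKI shRNA arrays Col4a1 lies between 6.35 and 6.44, above all other arrays, Timp3 lies below all non-silencing shRNA arrays, and Cd44 overlaps them.

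Of the laminins and basement membrane proteins, Lamb2, the laminin beta-2 chain, read 4.23, 4.16 and 4.53 on the QKI shRNA arrays and 3.41, 3.80 and 3.85 in the non-silencing line. All 3 were higher than every other array. It rose by 0.62 ± 0.13 (adjusted p = 0.00542), from a dim control. With only the arrays of the 2 lines fitted it was not called, either without the replicate number as a block (adjusted p = 0.085) or with it (0.0715). The other groups held means of 3.82 to 3.98, so this is a step out of the dim range and its size may be a lower bound.

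Nid2, or nidogen-2, which links laminin to collagen IV, read 3.61, 3.47 and 3.86 with QKI shRNA against 5.58, 5.66 and 5.96. The groups were far apart and the QKI shRNA group was dim. Nid2 fell by 2.09 ± 0.53 (adjusted p = 0.0166), and the call was lost without QKI shRNA array 1 (-2.07, adjusted p = 0.0524), QKI shRNA array 2 (-1.999, adjusted p = 0.0643) or array 3 of the non-silencing line (-1.97, adjusted p = 0.0662). With QKI siRNA it read 3.67, 3.97 and 4.69 against 4.45, 5.58 and 5.43, a log2 change of -1.05 ± 0.53 that was not called (adjusted p = 0.581), with 1 array above the lowest control. Without the 4 arrays that stand apart it was called there, at -1.34 (adjusted p = 0.0143). A second Nid2 cluster of lower mean, 4.14, did not follow: its log2 change was 0.04 with QKI shRNA (adjusted p = 0.977) and -0.88 with QKI siRNA (adjusted p = 0.388).

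The laminin chains Lama4 and Lamb1 had all 3 QKI shRNA arrays below the non-silencing ones. Lama4, the alpha-4 chain, read 7.19, 7.15 and 7.37 against 8.40, 7.79 and 7.84, a log2 change of -0.77 ± 0.26 (adjusted p = 0.0826). Lamb1, the beta-1 chain, read 4.996, 4.82 and 5.10 against 5.63, 5.59 and 5.59, a log2 change of -0.63 ± 0.25 (adjusted p = 0.147). Neither was called, and both were called without the 4 arrays that stand apart (adjusted p = 0.0254 and 0.0233). Lamc1, the gamma-1 chain shared by most laminins, moved the other way in its mean, by 0.55 ± 0.38 (adjusted p = 0.509), with overlapping groups. Hspg2, which encodes perlecan, read 5.21, 5.27 and 5.34 against 5.80, 5.62 and 6.13 (log2 change -0.57 ± 0.43, adjusted p = 0.569). Lama1, Lama2 and Lama5 differed by at most 0.07 in that comparison.

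None of the 6 integrin genes measured was called in any comparison. Itgb1, the beta-1 subunit that pairs with most laminin- and collagen-binding alpha subunits, read 9.94, 9.93 and 10.04 with QKI siRNA against 10.09, 10.30 and 10.42. All 3 arrays were lower, and the log2 change of -0.30 ± 0.14 was not called (adjusted p = 0.541). The QKI shRNA arrays read 10.42, 10.35 and 9.96 against 10.35, 10.53 and 10.39, a log2 change of -0.18 ± 0.14 with overlapping groups. Itga7, the alpha subunit of a laminin receptor, had the lowest p of the 40 genes with hnRNP A1 siRNA. It read 4.12, 4.11 and 3.98 against 4.45, 4.32 and 4.28, all 3 lower, and the log2 change of -0.28 ± 0.12 was not called (adjusted p = 0.668). Itga3, the alpha-3 subunit, was dim in every group and read 3.95, 4.04 and 3.85 with QKI shRNA against 3.48, 3.57 and 3.77 (adjusted p = 0.0872). Itgb8, a subunit of a receptor that activates TGF-beta, differed mainly between arrays of the same group, as given further down.

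Among the other matrix receptors, Sdc3, or syndecan-3, a heparan sulfate proteoglycan of the cell surface, was called in 3 comparisons. It read 8.09, 7.75 and 7.81 in untreated cells, 7.21, 6.88 and 6.72 with non-silencing siRNA and 7.17, 7.13 and 6.92 with QKI siRNA. Both siRNA groups lay wholly below untreated cells. Sdc3 fell by 0.95 ± 0.16 with non-silencing siRNA (adjusted p = 0.0478) and by 0.81 ± 0.16 with QKI siRNA (adjusted p = 0.0425). Leaving out 1 array at a time ended the first call in 11 of 18 fits (adjusted p from 0.0276 to 0.241) and the second in 9 (from 0.0253 to 0.236). Fitting only the compared arrays ended both (adjusted p = 0.0649 and 0.175). Sdc3 was the only one of the 40 genes called in either comparison, in which 0.0794% and 0.46% of all clusters were called, and both use the same untreated arrays. With hnRNP A1 siRNA, where none of the 40 genes and 0.296% of all clusters were called against untreated cells, it read 7.36, 7.01 and 7.35 (log2 change -0.65 ± 0.16, adjusted p = 0.101).

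Sdc3 on the QKI shRNA arrays read 7.94, 7.87 and 8.27 against 7.62, 7.22 and 7.38 in the non-silencing line. The groups did not overlap and it rose by 0.62 ± 0.16 (adjusted p = 0.0231). That level was near the untreated one, from which it differed by 0.14 ± 0.16. The call was lost without QKI shRNA array 3 (0.50, adjusted p = 0.0885), without array 2 or 3 of the non-silencing line (0.53 and 0.61, adjusted p = 0.104 and 0.0746), and without the 4 arrays that stand apart (0.50, adjusted p = 0.0863). It was lost too with only the arrays of the 2 lines fitted, without the replicate block (adjusted p = 0.0788) and with it (0.0858). Median centring ended it as well (0.56, adjusted p = 0.146).

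Cd44, the hyaluronan receptor, read 6.57, 6.37 and 5.07 with QKI shRNA and 5.23, 4.14 and 4.14 in the non-silencing line. Array 3 of the first group lay below array 1 of the second, so the groups overlapped. Cd44 rose by 1.497 ± 0.46, close to the threshold (adjusted p = 0.0498). Leaving out 1 array at a time ended this call in 13 of 18 fits (adjusted p from 0.00936 to 0.207), the highest of them without QKI shRNA array 1. With only the arrays of the 2 lines fitted it was lost (adjusted p = 0.109), and called with the replicate number as a block in that fit (adjusted p = 0.0243). Median centring ended the call too (1.44, adjusted p = 0.09955). Sdc4, or syndecan-4, read 4.94, 5.39 and 5.55 against 4.32, 5.04 and 5.01 and was not called (log2 change 0.50 ± 0.22, adjusted p = 0.202).

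Of the matricellular genes, Sparc, which encodes a collagen-binding glycoprotein also known as osteonectin, had the lowest p of the 40 in both QKI comparisons, in opposite directions. It read 7.86, 7.68 and 8.61 on the QKI shRNA arrays against 6.37, 5.92 and 6.10. All 3 were higher than every other array of the 18. Sparc rose by 1.92 ± 0.27 (3.77-fold, adjusted p = 0.000282). With QKI siRNA it read 6.31, 5.82 and 5.82 against 7.50, 6.50 and 6.66, all 3 below the controls, a log2 change of -0.90 ± 0.27 that was not called (adjusted p = 0.376). With hnRNP A1 siRNA it read 6.72, 6.02 and 6.52 and overlapped those controls (-0.47 ± 0.27, adjusted p = 0.823).

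The level of Sparc in the controls bears on both. Untreated cells read 7.16, 7.10 and 7.23, above every array of the non-silencing line, whose log2 change from them was -1.03 ± 0.27 (adjusted p = 0.0522). The QKI shRNA group was above untreated cells by 0.89 ± 0.27, without overlap but not called (adjusted p = 0.135). On the siRNA side the mean was 6.89 with non-silencing siRNA and 5.98 with QKI siRNA, against 7.16 in untreated cells.

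Sparcl1, a relative of Sparc also called hevin, read 3.57, 3.82 and 3.93 in the non-silencing line and 7.24, 6.77 and 4.50 in untreated cells. It fell by 2.39 ± 0.60 to a dim level (adjusted p = 0.0402), the 1 call among the 40 genes in that comparison, where 3.26% of all clusters were called. Array 3 of the untreated cells stood well below the other two and above the line. Leaving out 1 array at a time ended the call in 9 of 18 fits (adjusted p from 0.00264 to 0.199), the highest of them without untreated array 1. It was lost too with only the compared arrays fitted (adjusted p = 0.125) and with quantile normalization (0.0537), where Sparc was called in place of it (0.0299 and 0.0392). The QKI shRNA arrays were as dim, at 3.96, 3.72 and 3.87, and their difference from untreated cells of -2.32 ± 0.60 was not called (adjusted p = 0.062). Thbs2, which encodes thrombospondin-2, was dim in all groups and called in none.

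Of the genes for proteases, inhibitors and crosslinking, Timp3, an inhibitor that binds to the matrix, was the 1 called. It read 7.61, 7.08 and 7.90 on the QKI shRNA arrays and 9.30, 9.41 and 9.79 in the non-silencing line. The groups were separated by more than their own ranges. Timp3 fell by 1.97 ± 0.39 (3.91-fold lower, adjusted p = 0.00378). Other groups were at a like level: non-silencing siRNA read 7.48, 6.99 and 6.87, QKI siRNA 7.32, 7.36 and 7.37, and hnRNP A1 siRNA 7.61, 6.99 and 8.77, the last of them above the lowest untreated array.

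Untreated cells read 9.59, 9.37 and 8.18 for Timp3. The differences from untreated cells were -1.93 ± 0.39 for non-silencing siRNA (adjusted p = 0.0874), -1.70 ± 0.39 for QKI siRNA (adjusted p = 0.0659), -1.52 ± 0.39 for QKI shRNA (adjusted p = 0.063) and -1.26 ± 0.39 for hnRNP A1 siRNA (adjusted p = 0.168). None was called with all arrays, and the 4 share the untreated group. Without the 4 arrays that stand apart all 4 were called, at -2.37, -2.14, -2.14 and -2.18 in that order (adjusted p = 0.000491, 0.000596, 0.000188 and 0.000669). Against its own control, QKI siRNA changed Timp3 by 0.24 ± 0.39 (adjusted p = 0.903) and hnRNP A1 siRNA by 0.68 ± 0.39 (adjusted p = 0.817).

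Adamts1, a protease of matrix proteoglycans, had the largest change of the 40 genes with QKI siRNA in its mean but varied as much within groups. It read 7.37, 6.84 and 4.73 with QKI siRNA against 4.97, 4.46 and 4.80, a log2 change of 1.57 ± 0.74 that was not called (adjusted p = 0.55). The QKI shRNA arrays read 7.41, 7.24 and 4.90 against 5.04, 4.37 and 4.58, a log2 change of 1.85 ± 0.74 (adjusted p = 0.153). In each of these groups 2 arrays were high and array 3 was at the level of the controls.

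Timp1, a secreted inhibitor, followed a similar order with QKI shRNA at 8.64, 8.45 and 6.63 against 7.30, 6.30 and 6.37 (1.25 ± 0.49, adjusted p = 0.142). Timp2, another inhibitor, read 7.30, 6.85 and 8.52 against 8.56, 8.23 and 8.54 (-0.89 ± 0.41, adjusted p = 0.227). Array 3 lay within the controls' range for both. Mmp2, Mmp9, Mmp14 and Lox, which encode matrix metalloproteinases and the collagen crosslinker lysyl oxidase, were dim in all 6 groups and differed by at most 0.23 from the matched control in the 3 comparisons with one.

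**Figure D3:**
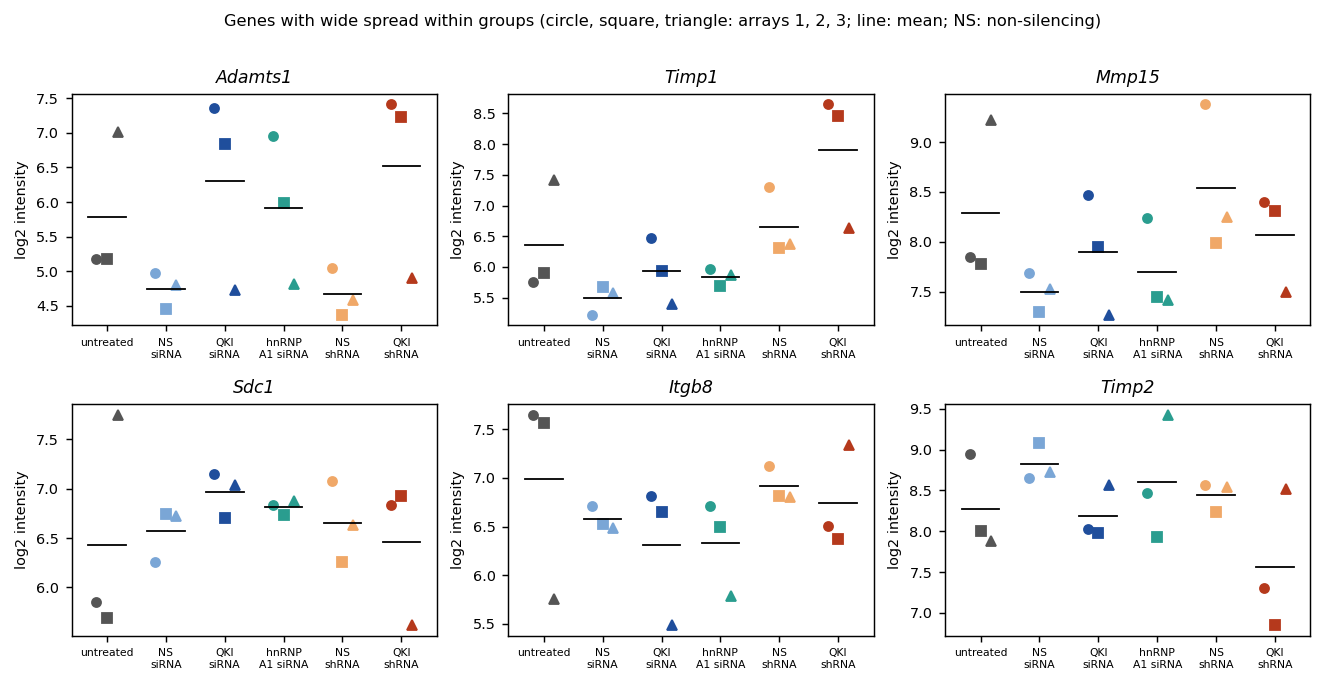
Log2 intensity of 6 genes that were not called, on the 18 arrays by group (points, shaped by array number) with the group mean (line). For Adamts1, array 3 is the high one in untreated cells (7.01) and the low one with QKI siRNA (4.73), hnRNP A1 siRNA (4.81) and QKI shRNA (4.90).

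These genes set array 3 apart in 4 groups. Adamts1 read 5.18, 5.18 and 7.01 in untreated cells and 6.95, 5.98 and 4.81 with hnRNP A1 siRNA. Cd44 read 4.50, 4.50 and 5.91 in untreated cells and Mmp15, a membrane-bound metalloproteinase, 7.85, 7.78 and 9.22, so that array 3 was again the high one. Itgb8 ran the other way at 7.65, 7.56 and 5.76. Sdc1, or syndecan-1, read 5.85, 5.69 and 7.75 in untreated cells and 6.83, 6.92 and 5.62 with QKI shRNA.

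With these 4 arrays left out, a choice made after seeing the data that narrows the spread by its construction, 13 of the 40 genes were called in the line labelled QKI shRNA, where 15.9% of all clusters were. Adamts1, Timp1, Timp2, Lama4, Lamb1 and Itgb8 joined and Sdc3 dropped out. Adamts1 rose there by 2.66 ± 0.28 (adjusted p = 3.11e-05) and Timp1 by 1.89 ± 0.27 (adjusted p = 0.000358), and Timp2 fell by 1.37 ± 0.26 (adjusted p = 0.00267). With QKI siRNA 3 of the 40 were called, where 5.33% of all clusters were: Adamts1 rose by 2.36 ± 0.28 (adjusted p = 0.000568), and Col11a1 and Nid2 fell as given above. With hnRNP A1 siRNA Adamts1 alone of the 40 was called, at 1.73 ± 0.28 (adjusted p = 0.00698), where 3.31% of all clusters were.

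Whether a gene's change against its own control differed between siRNA and shRNA was tested in the same fit, and 4 of the 40 genes were called, where 4.71% of all clusters were. Of these, 1 had the higher siRNA change (3.42% of all clusters) and 3 the lower (1.29%). For Sparc the siRNA change minus the shRNA change was -2.82 ± 0.39 on the log2 scale (-0.90 against 1.92, adjusted p = 0.00091). For Col11a1 it was -2.76 ± 0.63 (-1.03 against 1.73, adjusted p = 0.019) and for Col4a1 -1.07 ± 0.20 (-0.10 against 0.97, adjusted p = 0.007). For Timp3 it was 2.203 ± 0.56 (0.24 against -1.97, adjusted p = 0.0339). Leaving out 1 array at a time ended the call of Timp3 in 10 of 18 fits (highest adjusted p 0.0873, without QKI shRNA array 2) and that of Col11a1 without QKI siRNA array 2 (adjusted p = 0.0522). Quantile normalization ended that of Timp3 (adjusted p = 0.0585), and median centring those of Timp3, Col11a1 and Col4a1 (adjusted p = 0.0808, 0.0526 and 0.0545). The 2 changes share no array, and a control's level enters its own comparison. The non-silencing siRNA and shRNA groups overlapped for Col4a1 and did not for Col11a1, Sparc and Timp3; they were not tested against each other. For the genes not called, such as Nid2 (difference 1.04 ± 0.74) and Adamts1, the 2 changes were not shown to be alike either.

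**Figure D4:**
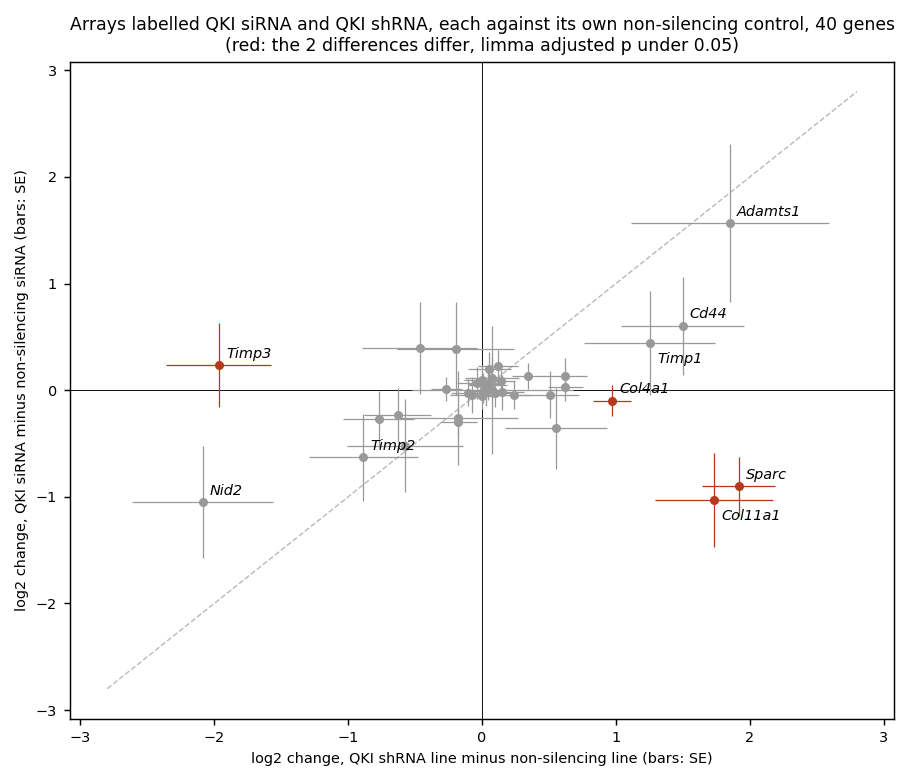
Each point is 1 of the 40 genes, with the log2 change of the line labelled QKI shRNA against its control (horizontal) and of QKI siRNA against its own (vertical), bars giving the standard error. Red marks the 4 genes whose changes differed in limma's test, Sparc, Col11a1, Col4a1 and Timp3, and the dashed line is equality.

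At the exon level each gene is read by several probe sets, and these followed the gene-level values. In the line labelled QKI shRNA, 57 of 58 probe sets of Col11a1 were higher (median difference 1.82), 46 of 49 of Col4a1 (0.95), 8 of 9 of Sparc (2.19), 15 of 16 of Cd44 (2.27), 9 of 10 of Sdc3 (0.69) and 25 of 26 of Lamb2 (0.51). All 5 of Timp3 were lower (median -1.71) and 7 of 8 of Nid2 (-2.09). With QKI siRNA, 54 of 58 of Col11a1, 9 of 9 of Sparc and 8 of 8 of Nid2 were lower, and 16 of 16 of Adamts1 were higher. The probe sets of a gene share the arrays and are no replicates.

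**Figure D5:**
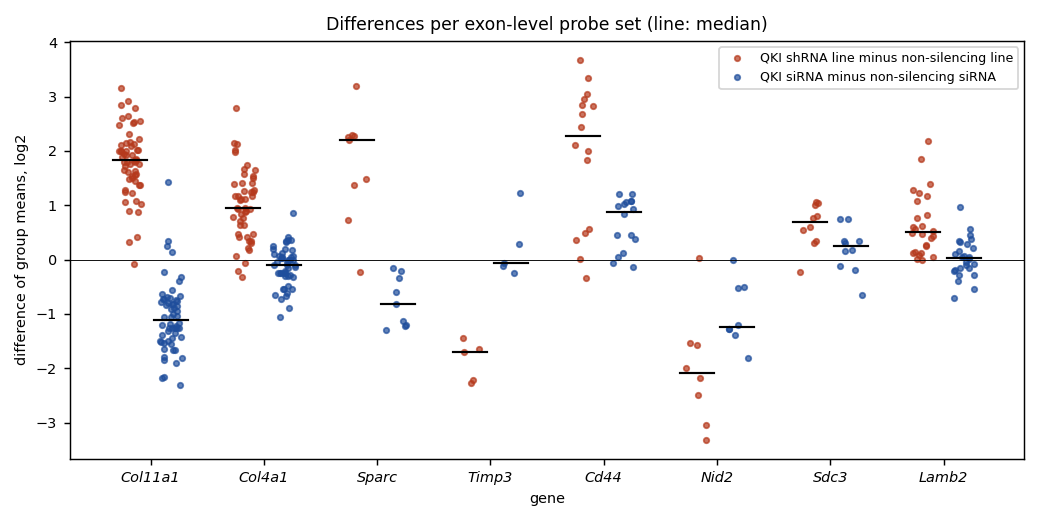
Each point is the difference of group means of 1 exon-level probe set (log2), for the line labelled QKI shRNA against its control in red and for QKI siRNA against its own in blue, with the median as a line. Col11a1 and Sparc lie mostly above 0 in red and below 0 in blue, and all 5 red points of Timp3 lie below 0.

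Exon usage was tested as the value of a probe set minus the value of its gene on the same array. Over 112779 probe sets, 930 of them in the 40 genes, 4 probe sets of 3 of the genes were called in the line labelled QKI shRNA (0.636% of all probe sets), and 0 with QKI siRNA and 0 with hnRNP A1 siRNA (0% each). At an unadjusted p under 0.05 stood 140 of the 930 in that line (12.7% of all probe sets), 105 with QKI siRNA (8.24%) and 54 with hnRNP A1 siRNA (6.28%). With the replicate number as a block, 8 of the 40 genes held a called probe set in that line. The share of all probe sets called in that fit was not counted, so the 8 cannot be set against a background. A second method, diffSplice, called 4 of the 40 genes there (5.16% of all 10080 genes), 2 with QKI siRNA (Itga3 and Col5a2, 1.56% of all) and 0 with hnRNP A1 siRNA (0.347%). Probe sets 6043531 of Lamb2 and 6130322 of Sparc were called by both. The Lamb2 probe set read 5.64, 5.04 and 6.44 with QKI shRNA against 3.36, 4.07 and 3.12, a change of 1.57 ± 0.33 beyond the gene's own (adjusted p = 0.0382). Its control mean of 3.52 was near the lower cut for probe sets. That of Sparc read 4.87, 5.41 and 4.57 against 5.41, 5.11 and 5.04 while the gene rose, a change of -2.15 ± 0.44 relative to it (adjusted p = 0.0293). A probe set that does not follow its gene gives such a fall whenever the gene rises. Whether this one responds to Sparc RNA was not tested. Probe set 6551254 of Sparc changed the other way (1.27 ± 0.26, adjusted p = 0.0308), and diffSplice did not call it (FDR 0.0557). The exon each probe set lies in was not looked up here. Leaving out 1 of the 6 compared arrays ended the call of probe set 6043531, and that of 6130322, in 5 of 6 fits (highest adjusted p 0.148 for Lamb2 and 0.0925 for Sparc).

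In the other genes of matrix assembly and adhesion, chosen by list, 171 of 219 were measured. In the line labelled QKI shRNA 14 were higher (8.19%, against 3.38% of all clusters) and 16 lower (9.36%, against 6.9%) than in the non-silencing line, and none was called with QKI siRNA or hnRNP A1 siRNA against their control. None of the 22 other collagens and none of the 10 other integrins measured was called. Of 21 genes for collagen folding and crosslinking, 2 rose and 5 fell: Pcolce, an enhancer of procollagen processing, rose by 1.81 ± 0.34 (adjusted p = 0.00242), while the lysyl hydroxylase gene Plod2 fell by 1.11 ± 0.26 (adjusted p = 0.0102) and the prolyl hydroxylase gene P3h1 by 1.00 ± 0.25 (adjusted p = 0.0175).

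Of 31 other basement membrane and elastic matrix genes 4 rose and 2 fell in that line. Fbln5, an elastic fibre protein, rose by 2.06 ± 0.19 (adjusted p = 8.71e-06), the fibrillin gene Fbn2 by 1.78 ± 0.41 (adjusted p = 0.00925) and the netrin gene Ntn1 by 1.35 ± 0.37 (adjusted p = 0.0274). Of 14 proteoglycan genes 1 rose and 3 fell. Sdc2, or syndecan-2, rose by 2.70 ± 0.32 (adjusted p = 5.88e-05), glypican-3 (Gpc3) fell by 1.58 ± 0.19 (adjusted p = 7.06e-05) and biglycan (Bgn) by 1.07 ± 0.26 (adjusted p = 0.0125). The non-silencing line itself stood below untreated cells for Sdc2 (-1.50 ± 0.32, adjusted p = 0.02) and above them for Gpc3 (0.95 ± 0.19, adjusted p = 0.0154).

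Of 26 focal adhesion genes 1 rose and 4 fell in the line labelled QKI shRNA. Cav1, which encodes caveolin-1, fell by 4.28 ± 0.45 (adjusted p = 1.98e-05), the integrin activator gene Fermt2 by 1.35 ± 0.18 (adjusted p = 0.000164) and the parvin gene Parvb by 0.97 ± 0.21 (adjusted p = 0.00579). The non-silencing line stood above untreated cells for Cav1 by 2.16 ± 0.45 (adjusted p = 0.0177), and the line labelled QKI shRNA fell by 2.11 ± 0.45 against them (adjusted p = 0.018). Of 30 other proteases and inhibitors 4 rose and 2 fell, among them Adamts9 (1.90 ± 0.40, adjusted p = 0.00499), Htra1 (1.498 ± 0.29, adjusted p = 0.00281) and Plat (1.08 ± 0.14, adjusted p = 0.000132), all higher. Of 17 matricellular and TGF-beta pathway genes Smad4 (0.79 ± 0.18, adjusted p = 0.00923) and Ccn5 (0.59 ± 0.16, adjusted p = 0.0272) rose.

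Cell type markers moved in the same comparison. Of 6 measured markers of myelinating oligodendrocytes Mbp and Cnp fell by 4.24 and 2.71 on the log2 scale (adjusted p = 0.000919 and 8.92e-05), and the mean of the 6 lay at 4.83 to 4.88 on the QKI shRNA arrays against 5.73 to 6.41. Mag was lower in its mean (4.30 against 5.61) and Mog higher (4.14 against 3.92), neither of them called. The other 2 of the 6 were dim in all groups. Of 6 measured astrocyte markers Gfap and Slc1a3 rose by 2.31 and 1.42 and Aldoc fell by 1.44 (adjusted p = 0.0143, 0.00989 and 0.0153). The mean of the 6 was 5.33 to 5.93 against 4.94 to 5.20, and 2 of the 6 were dim in all groups. For Gfap, Slc1a3 and Aldoc the untreated means (6.004, 6.39 and 9.90) lay near those of QKI shRNA (6.59, 6.52 and 9.77). The non-silencing line stood apart from both (4.28, 5.10 and 11.20), and its Slc1a3 was called against untreated cells (-1.30, adjusted p = 0.0428). Of 9 fibroblast markers 5 were dim in all groups and Twist1 fell by 1.06 (adjusted p = 0.0302), with a mean of 4.18 to 4.35 against 4.26 to 4.38. The part of these markers in the matrix results was not tested. As bulk RNA was measured, fewer cells of a type and less RNA per cell cannot be told apart.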

How the data were processed

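The data are 18 Affymetrix rat exon arrays of CG-4 cells, each deposited at the gene level (18901 transcript clusters) and at the exon level (204586 probe sets), which makes 36 samples. The deposited values are log2 intensities. RMA and Partek are the tools that the submitters' processing notes list for them, without versions, and the sources used here do not give a build or an annotation. Array medians ran from 3.77 to 4.18, no read depth applies, and the number of arrays limits the precision.

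Symbols came from the platform annotation (13335 clusters with 1 symbol, 612 with several, 4954 with none), updated through the RefSeq gene table of GRCr8. The fit in limma (version 3.58.1, under R version 4.3.3 and data.table version 1.17.8) had 1 mean per group over all 18 arrays (lmFit and eBayes: two-sided, 12 residual and 3.57 prior degrees of freedom, Benjamini-Hochberg adjustment over all clusters). For exon usage, probe sets below 3.40, the 25th percentile of their means, were left out, as were genes with fewer than 3 remaining. The steps were tested on simulated data. The genes and lists were chosen with earlier results of these data known. Named with values are all called genes, the 4 of lowest p where under 4 were called, and up to 3 called genes per other list, and others were added after their values were seen.

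In the line labelled QKI shRNA and its control, same-numbered arrays deviated together (r = 0.25, 0.14 and 0.15), so the numbers pair these arrays by the rule that every pair exceeds 0.1. The labels do not say what they share. In the other comparisons of groups not every pair exceeded 0.1. QKI siRNA and hnRNP A1 siRNA were not compared, so their numbers were not checked by this rule. Arrays 1 and 2 of each correlated most with the same-numbered array of the other (r = 0.58 and 0.44, over all clusters centred on their means). Quantile normalization, median centring, a filter on low values, the replicate block, means of probe sets, other fits and left-out arrays were tried as alternatives. Marker lists were measured for progenitors, myelinating oligodendrocytes, fibroblasts, pericytes, endothelium, Schwann cells, astrocytes, microglia and neurons.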

Additional observations from a re-analysis of the deposited data

Results flagged for a closer look

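For 4 genes the change against the matched control differed between siRNA and shRNA against QKI in limma's test of that difference, adjusted over all clusters. The siRNA change minus the shRNA change was -1.07 for Col4a1, -2.76 for Col11a1 and -2.82 for Sparc, and 2.203 for Timp3. Qki itself was reduced less in the line labelled QKI shRNA than with the siRNA (difference -1.19, adjusted p = 0.0432), and the non-silencing siRNA and shRNA arrays overlapped for Col4a1 but not for the other 3. The part of either in the differences was not tested.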

How the results depend on the processing

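Of 1065 values of the named genes under other settings, 925 kept their side of the threshold, 96 lost a call, 44 gained one and 0 changed direction. Many of these settings leave the log2 change itself as it was, such as the replicate block or leaving out an array of another group. The 0 is therefore in part fixed in advance and is no measure of stability. In the line labelled QKI shRNA 5 genes were called in place of 8 with only the compared arrays fitted (4 of the 8, and Lamb1), where 6.75% of all clusters were. Without the 4 arrays that stand apart, chosen after seeing the data, 13 genes were called, where 15.9% of all clusters were. That same omission gave 3 calls for QKI siRNA and 1 for hnRNP A1 siRNA against their control, and against untreated cells 4 for non-silencing siRNA, 5 for non-silencing shRNA, 6 for QKI siRNA, 10 for QKI shRNA and 7 for hnRNP A1 siRNA, where 2.96%, 10.4%, 6.49%, 11.6% and 6.62% of all clusters were called. The spread is smaller there by construction, and in the other cases the cause was not tested.

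Against untreated cells, with 1 call each, non-silencing siRNA and QKI siRNA gave 0 with only the compared arrays, with median centring and with a trended robust prior. Of all clusters 0.635%, 0.0212% and 0.0317% were called there for non-silencing siRNA, and 0.0265%, 0.153% and 0.275% for QKI siRNA. Non-silencing shRNA gave 0 with median centring (0.836% of all clusters), 2 with quantile normalization (Sparc and Sdc3, not Sparcl1, 3%) and 2 with a filter on low values (Sparc and Sparcl1, 4.82%). QKI shRNA gave 1 with only the compared arrays, Hspg2 in place of Col4a1 (0.476% of all clusters), and 0 with median centring (1.23%). It gave 3 with the filter (2.97%) or with means of probe sets (3.29%). The test of siRNA against shRNA gave 1 call in place of 4 with median centring (1.9% of all clusters). Median centring also ended the calls of Cd44 and Sdc3 in the line labelled QKI shRNA against its control. For exon usage with QKI siRNA, diffSplice called 2 genes in place of 0. Over all clusters, quantile normalization turned 639 higher and 1304 lower in the line labelled QKI shRNA into 981 and 1015, and the median of all changes was at most 0.12 as deposited (QKI siRNA against untreated cells, 0.01 with quantile normalization).

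The replicate number as a block gave 2 calls for non-silencing shRNA, 2 for QKI siRNA and 3 for QKI shRNA against untreated cells, where it has no paired basis. Of all clusters 3.83%, 0.804% and 2.34% were called there. For exon usage in the line labelled QKI shRNA it gave 8 genes in place of 3, and the share of all probe sets was not counted. It ended no call in the 8 genes of that line with all arrays fitted. With only that line and its control fitted, Lamb2 and Sdc3 were called neither without the block (adjusted p = 0.085 and 0.0788) nor with it (0.0715 and 0.0858), and Col11a1 and Cd44 were called with it (0.0295 and 0.0243) and not without (0.0621 and 0.109).

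Leaving out 1 array at a time gave 0 to 0 calls for QKI siRNA and for hnRNP A1 siRNA against their control, and 5 to 9 in the line labelled QKI shRNA (5 without array 3 of the non-silencing line). Of all clusters, 0 to 22, 1 to 26 and 1316 to 2203 were called in these fits. Against untreated cells it gave 0 to 2 for non-silencing siRNA, 0 to 3 for non-silencing shRNA, 0 to 3 for QKI siRNA, 0 to 4 for QKI shRNA and 0 to 2 for hnRNP A1 siRNA. Of all clusters, 2 to 51, 159 to 897, 7 to 418, 175 to 845 and 6 to 360 were called there, in that order. The test of siRNA against shRNA gave 2 to 4 (518 to 1050 of all clusters). Exon usage gave 0 to 0 for both siRNAs and 0 to 4 for the line labelled QKI shRNA, with the share of all probe sets not counted. Col4a1, Sparc, Timp3 and Lamb2 stayed called in that line in all 18 such fits.

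With 3 arrays a group, differences that are small against the spread between arrays could not be told from none, and dim genes give at best lower bounds.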

Other observations

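Among the other genes of matrix assembly and adhesion, the change against the matched control also differed between siRNA and shRNA against QKI for 11 of the 171 measured (6.43%, against 4.71% of all clusters). The siRNA change was the higher one for 9 of them (5.26%, against 3.42%) and the lower one for 2 (1.17%, against 1.29%). Cav1 had the largest difference (siRNA minus shRNA change 4.10 ± 0.63, adjusted p = 0.00187). The glypican gene Gpc3 differed by 1.90 ± 0.27 (adjusted p = 0.00116) and the lysyl hydroxylase gene Plod2 by 1.56 ± 0.36 (adjusted p = 0.0223). Syndecan-2 (Sdc2) differed by -2.70 ± 0.45 (adjusted p = 0.00303) and the elastic fibre gene Fbln5 by -1.81 ± 0.27 (adjusted p = 0.00165). For Cav1, Gpc3 and Sdc2 the non-silencing line was itself called against untreated cells, as given above.

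Against untreated cells, Fyn, a Src-family kinase that acts downstream of integrins in oligodendrocytes, fell by 0.82 ± 0.16 with QKI siRNA (adjusted p = 0.0348) and by 0.76 ± 0.16 in the line labelled QKI shRNA (adjusted p = 0.017). Both use the same untreated arrays, and neither QKI group was called for Fyn against its own non-silencing control. The Fyn mean was 11.00 in untreated cells and lower in every other group. It was 10.67 with non-silencing siRNA, 10.66 in the non-silencing line and 10.44 with hnRNP A1 siRNA, against 10.18 with QKI siRNA and 10.24 with QKI shRNA. Among the other cell types' markers, the means of the endothelial list ran from 4.08 to 4.89 over all arrays. Those of the pericyte list ran from 3.60 to 4.14 and of the Schwann cell list from 5.57 to 6.14. The neuron list gave 3.95 to 4.29 and the microglia list 3.27 to 3.79. Only 3 of 6 listed endothelial and 3 of 6 Schwann cell markers were measured, with 1 of each dim in all groups. Dim in all groups were also 3 of 6 measured pericyte markers, 4 of 6 neuron markers and 5 of 6 microglia markers. The Schwann cell mean rests largely on Sox2, which read 9.69 in untreated cells, with Prx at 4.701 and Ngfr at 3.62.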
